A study of Mus musculus with 3 samples.

Results

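The cells described here were cortical neurons that carried *Myh8* mRNA, which encodes the perinatal myosin heavy chain of skeletal muscle and also names a group of somatostatin (SST) interneurons in the adult cortex. They were found in single-cell RNA-seq libraries of GFP+ neurons, sorted from the cortex of SstCre/+;RCE mice on embryonic day 16.5 (E16.5) and postnatal days 1 (P1) and 5 (P5). A cell was kept with more than 700 genes detected and less than 10% of its unique molecular identifiers (UMIs) on mitochondrial genes, and 9433 of 12324 cells were kept. A Myh8 cell was a kept cell with at least 1 UMI of *Myh8* and none of *Nos1*, which marks long-range projecting SST neurons, or *Pdyn*, which encodes prodynorphin. There were 172 Myh8 cells, 1.82% of the kept cells, and 2 of them came from E16.5, 29 from P1 and 141 from P5. They were set against 3453 comparison cells of the same libraries, which had 0 UMIs of *Myh8* and *Nos1* and at least 5 of *Sst*, and of which 1918 came from E16.5, 735 from P1 and 800 from P5.

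All 3 libraries had the same genotype, in which Cre expressed from the *Sst* gene turned on the Rosa26 (RCE) GFP reporter, and no treatment is named. Each stage was 1 library, which pooled 6 animals at the embryonic stage and 3 animals at each postnatal one, so animals could not be compared with each other and stage and library cannot be told apart. The reporter stays on once Cre has acted, and the sort therefore held any cell with present or past *Sst* expression. Dead cells were left out by DAPI, the tissue was digested with pronase, the P5 tissue was also treated with trypsin and DNase, and myelin was removed at P1 and P5. With 1 library a stage there was no test between samples, and the 95% intervals given below cover counting error only.

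Martinotti cells are SST+ interneurons whose axons climb to the outermost cortical layer and inhibit the distal dendrites of pyramidal neurons. They arise in the medial ganglionic eminence, depend on *Lhx6* and *Sox6*, and use GABA together with neuropeptides. *Nr2f2* encodes the nuclear receptor COUP-TFII, a transcription factor best known from interneurons of the caudal ganglionic eminence and also present in some SST+ cells, and *Chrna2* encodes a nicotinic acetylcholine receptor subunit that marks deep-layer Martinotti cells in the mature cortex. Neurons with *Myh8*, *Nr2f2* and *Chrna2* are therefore candidates for a Martinotti type, and how often these genes were found together is given below.

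*Myh8* lies at chr11:67277124-67308634 on the plus strand of GRCm38, within a cluster of skeletal muscle myosin heavy chain genes that runs *Myh3*, *Myh2*, *Myh1*, *Myh4*, *Myh8*, *Myh13* on the same strand. Its neighbour *Myh4*, which encodes the fastest myosin of muscle, lies at chr11:67238029-67260446 and was the only other gene of the cluster to pass the filter on low counts in the Myh8 cells at P5. The 250 bases before the start of each gene (RefSeq, GRCm38.p6) are shown because the genes are neighbours and both were detected in these neurons. The gene positions above are from GENCODE, which places the start of *Myh4* further along the strand than RefSeq does. The window of *Myh4* and the distances below follow RefSeq. Capitals mark the runs of at least 10 bases that occur in both windows.
Myh8, chr11:67276874-67277123, plus strand: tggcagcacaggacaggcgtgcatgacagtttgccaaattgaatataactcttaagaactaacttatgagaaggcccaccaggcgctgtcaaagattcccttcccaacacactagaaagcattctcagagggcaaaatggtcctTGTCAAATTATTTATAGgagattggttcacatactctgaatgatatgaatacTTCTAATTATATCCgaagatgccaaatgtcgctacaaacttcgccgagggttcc
Myh4, chr11:67237562-67237811, plus strand: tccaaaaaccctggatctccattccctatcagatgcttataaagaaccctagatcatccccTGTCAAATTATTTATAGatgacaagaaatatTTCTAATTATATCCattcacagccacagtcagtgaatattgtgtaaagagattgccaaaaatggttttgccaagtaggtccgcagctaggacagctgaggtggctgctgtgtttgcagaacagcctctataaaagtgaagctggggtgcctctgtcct
The longer shared run, TGTCAAATTATTTATAG, is 17 bases long and begins 106 bases before the start of *Myh8* and 189 bases before that of *Myh4*. Of 32851 windows of the same length before mouse genes, 2 held it (0.00609%), those of *Myh8* and *Myh4*. The shorter run, TTCTAATTATATCC, is 14 bases long and begins 54 bases before *Myh8* and 158 before *Myh4*, and 4 windows held it (0.0122%), those of *Myh8*, *Myh4*, *Myh1* and *Myh2*. The E-box CANNTG occurred 1 time before *Myh8* and 2 times before *Myh4*, and 66.2% of all windows held it. The nuclear receptor element AGGTCA occurred in neither window on either strand, against 14.02% of all windows. The TATA motif TATAAA on the sense strand was found before *Myh4* only, in 2 copies, and in 7.59% of all windows. These matches describe letters of the reference and say nothing of which factors bind there.

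*Myh8* counts were low in every cell, so membership rested on few molecules. Of the 172 Myh8 cells, 146 (84.9%) had a single *Myh8* UMI, 22 had 2 and 4 had 3, and together they held 202 *Myh8* UMIs. Just outside this threshold were the kept cells with 0 *Myh8* UMIs, which numbered 3950, 2469 and 2821 in order of stage. A further 7 cells with *Myh8* were set aside for a *Nos1* UMI and 14, all at P5, for a *Pdyn* UMI. Around the *Sst* threshold of the comparison cells, 118, 69 and 90 cells at E16.5, P1 and P5 had exactly 5 *Sst* UMIs, and 150, 80 and 126 had 4. The ends of the myosin transcripts, where the reads lie, differ between the genes. In the last 1000 bases of the *Myh8* transcript, 18 of 911 stretches of 90 bases (1.98%) also occurred in another gene, *Myh2*.

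The Myh8 cells were deeper than the cells around them at E16.5 and P1. Their median UMIs per cell were 14475.5, 11045 and 5685 in order of stage, against 6452, 4371 and 5397.5 in the comparison cells. Of the Myh8 cells, 1 of the embryonic ones, 11 of those at P1 (37.9%) and 18 of those at P5 (12.8%) were among the 5% of cells with the most UMIs in their library. *Sst* itself was not required of Myh8 cells, and 22 of 29 at P1 (75.9%) and 86 of 141 at P5 (61.0%) had at least 5 *Sst* UMIs. *Myh8* was seen in 0 of 39, 0 of 37 and 0 of 25 excitatory-like cells of the 3 libraries, which allows a share of up to 7.69%, 8.11% and 12%, so free *Myh8* RNA could not be measured closely. Of the cell barcodes, 3 occurred in both the E16.5 and P1 libraries, 1 in both E16.5 and P5 and 6 in both P1 and P5, and 1 of the last was a Myh8 cell.

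Myh8 cells took a larger share of the library at each later stage. The share of kept cells was 0.0506% at E16.5 (2 of 3952, Clopper-Pearson interval 0.00613 to 0.183), 1.16% at P1 (29 of 2501, 0.778 to 1.66) and 4.73% at P5 (141 of 2980, 3.997 to 5.56), and no interval overlapped its neighbour. With every cell thinned to 2000 UMIs the order was the same: 0 of 3615 cells at E16.5, which allows up to 0.102% (Clopper-Pearson), 8 of 1828 at P1 (0.438%, 0.189 to 0.860) and 68 of 2443 at P5 (2.78%, 2.17 to 3.52). The share counts cells in which a *Myh8* molecule was caught, and cells that switch the gene on and cells that enter the sort cannot be told apart.

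**Figure D1:**
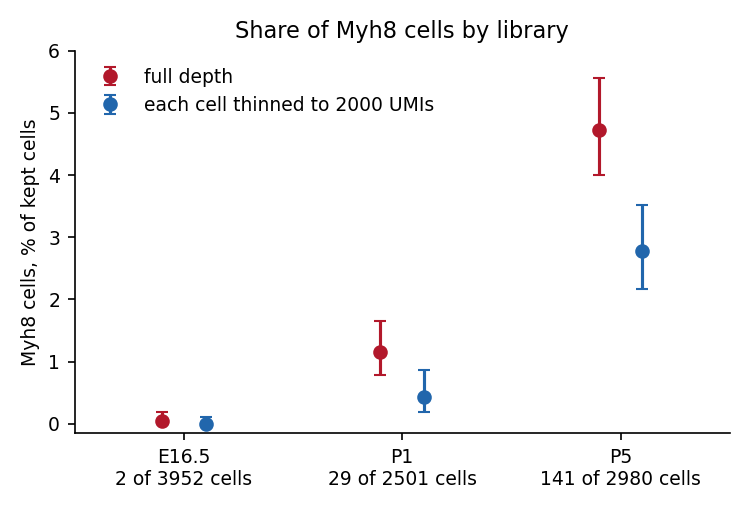
Share of kept cells that were Myh8 cells (y axis, %) in the 3 libraries, at full depth and with each cell thinned to 2000 UMIs; bars are 95% Clopper-Pearson intervals. The share at full depth is 0.0506%, 1.16% and 4.73% in order of stage, and the thinned share keeps this order.

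The 2 Myh8 cells at E16.5 are given as single cells. They held 18307 and 10644 UMIs, and both had 0 UMIs of *Nr2f2*, *Chrna2*, *Reln*, *Gfra2*, *Hs6st2* and *Zbtb20*. *Nr2f2* was found in 34.7% of the comparison cells of that library. Both cells had interneuron genes: *Sst* at 86 and 38 UMIs, *Lhx6* at 5 and 5, *Gad1* at 6 and 6, and *Calb1* at 18 and 17, where the comparison cells had a mean of 2.75 *Calb1* UMIs. With so few cells, 23.2% of the genes tested at E16.5 were at least 2-fold higher and 12.7% at least 2-fold lower than in the comparison cells. Ratios of that library therefore enter below only in counts of genes and in orderings over all 3 libraries.

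For P1 and P5 the UMIs of the Myh8 cells and of the comparison cells were summed and scaled to the same total as CPM, and a gene was called when log2((CPM + 1)/(CPM + 1)) reached 1 in either direction, a 2-fold difference. At P1, 1.27% of the 7250 genes tested were called higher and 2.41% lower. At P5, where 141 cells were summed, 0.35% of 6849 genes were called higher and 0.569% lower. In both libraries, 3 of 6320 genes (0.0475%) were higher, and these were *Nr2f2*, *Asic2* and *Gfra2*. A further 14 genes (0.222%) were lower in both, among them *Olfm3*, *Man1a*, *Zbtb20*, *Nkain3*, *Cdh7*, *Lingo1*, *Tmtc4*, *Tox2*, *Eya4*, *Thsd7a*, *Npy*, *Pcdh18* and *Lmo4*. *Man1a*, *Zbtb20*, *Npy* and *Lmo4* were also lower in the 2 cells at E16.5 (4 of 5307 genes, 0.0754%). There 12.7% of all genes tested were called lower, so the third library adds little for these genes. No gene was higher in all 3 libraries (0 of 5307, 0%).

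*Nr2f2* was found in most but not all Myh8 cells. At P1 it had 176 UMIs in the Myh8 cells, 521 CPM (447 to 604), against 165 CPM (153 to 177) in the comparison cells, a log2 ratio of 1.66 (1.42 to 1.90). At P5 it had 429 UMIs, 509 CPM (462 to 560) against 153 CPM (142 to 165), a log2 ratio of 1.73 (1.55 to 1.91). The level of *Nr2f2* in Myh8 cells was thus similar in the 2 postnatal libraries. It was detected in 18 of 29 Myh8 cells at P1 (62.1%, against 24.1% of comparison cells) and in 90 of 141 at P5 (63.8%, against 28.0%). After thinning, these shares were 44.8% against 14.1% at P1 and 46.0% against 19.4% at P5. Per Myh8 cell, *Nr2f2* ranged from 0 to 26 UMIs at P1 (median 4) and from 0 to 18 at P5 (median 2). *Nr2f2* was seen in 1 of 37 excitatory-like cells at P1 and 0 of 25 at P5.

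*Chrna2* was near the limit of detection. At P1 it had 2 UMIs, both in 1 Myh8 cell, and at P5 it had 13 UMIs in 12 of 141 Myh8 cells (8.51%), against 29 of 800 comparison cells (3.63%). Its log2 ratio at P5 was 0.78 (-0.19 to 1.79), its interval included 0, and it did not pass the filter on low counts. After thinning, its shares at P5 were 2.16% and 1.88%. *Nr2f2* was thus not detected in 11 of 29 and 51 of 141 Myh8 cells, and *Chrna2* could not be judged at this depth, so the cells are called by *Myh8* alone.

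Other genes higher in Myh8 cells had varied roles. *Calb1*, which encodes the calcium buffer calbindin, stood at 317 CPM against 133 at P1 (log2 ratio 1.24, 0.94 to 1.55) and at 399 against 201 at P5 (0.99, 0.80 to 1.17). It was detected in 69.0% of Myh8 cells at P1 and 66.7% at P5, against 28.0% and 40.8% of comparison cells. *Gfra2*, the receptor of the trophic factor neurturin, stood at 148 CPM against 57.3 at P1 and 112 against 54.7 at P5, log2 ratios of 1.36 (0.90 to 1.82) and 1.01 (0.67 to 1.38). *Asic2*, a proton-gated sodium channel, stood at 53.3 CPM against 15.5 at P1 and 52.2 against 22.5 at P5, log2 ratios of 1.72 (0.94 to 2.55) and 1.18 (0.67 to 1.74). Both genes were low in the comparison cells and kept their direction when the single Myh8 cell with the most UMIs of the gene was left out.

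*Pcdh17*, a protocadherin of axons and synapses, was at 1078 CPM against 438 at P1 and at 901 against 506 at P5, log2 ratios of 1.30 (1.14 to 1.46) and 0.83 (0.71 to 0.95). Of the 29 Myh8 cells at P1, 28 had *Pcdh17*, with a median of 10 UMIs a cell. *Mgat4c*, a member of a family of sugar transferases, was at 397 CPM against 201 at P1 and at 843 against 495 at P5 (log2 ratios 0.98 and 0.77). *Hs6st2*, a heparan sulfate sulfotransferase, was at 80.0 CPM against 39.6 at P1 and 163 against 80.0 at P5 (log2 ratios 0.995 and 1.01, the second called). *Igfbp5*, which binds insulin-like growth factors, had log2 ratios of 0.75 at P1 and 1.07 at P5. *Cdh12*, a type II cadherin, was detected in 36.2% of Myh8 cells at P5 against 10.6% of comparison cells and was called there (log2 ratio 1.46, 1.01 to 1.97), with 0.63 (-0.53 to 1.66) at P1. *Fxyd2*, a regulator of the sodium pump, was called at P1 only, with 1.56 there and 0.52 at P5. The kinase gene *Hunk* (1.36), the Ras-like gene *Rasl10a* (1.31) and the glycosaminoglycan enzyme gene *Csgalnact1* (1.23) were called at P5 only, whereas the transcription factor gene *Hlf* (1.23) and the cofactor gene *Ldb2* (1.40) were called at P1, with 0.78 and 0.80 at P5. *Id2*, a helix-loop-helix inhibitor, had a log2 ratio of 2.38 at P5, which came from 30 UMIs in 7 Myh8 cells, 13 of them in 1 cell, and it was -0.19 among Myh8 cells with at least 5 *Sst* UMIs.

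The 15 genes with the highest ratio in whichever library was lowest for them were *Calb1*, *Mgat4c*, *Fxyd2* and 12 others (*Creg1*, *Tatdn2*, *Wscd2*, *Ric8b*, *Fam19a2*, *Ccdc71*, *Gyg*, *Cit*, *Mrpl22*, *Mknk2*, *Pdxk* and *Gas7*). These 12 had log2 ratios of 0.52 (*Cit*) to 0.92 (*Tatdn2*) at P1 and 0.48 (*Gas7*) to 0.83 (*Mknk2*) at P5, so none was called in either postnatal library.

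**Figure D2:**
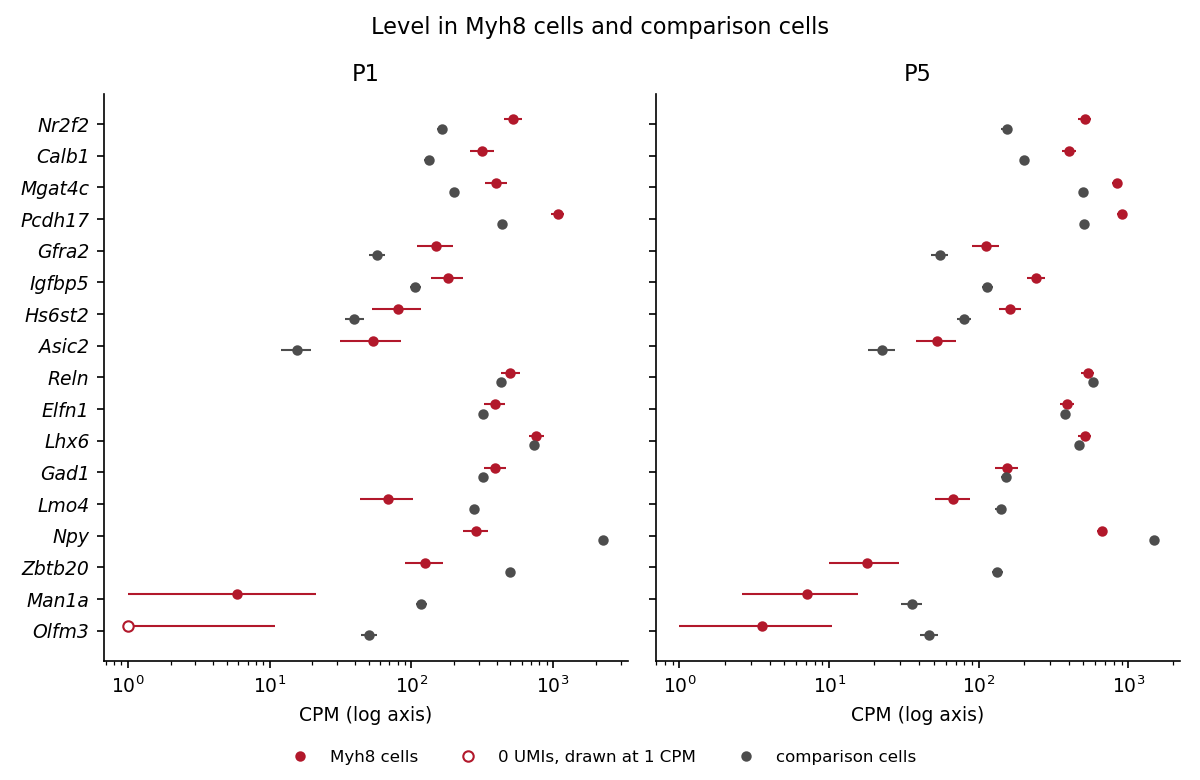
CPM on a log axis of 17 genes (rows) in Myh8 cells and comparison cells at P1 (left) and P5 (right); lines are exact Poisson intervals. *Nr2f2*, *Calb1*, *Pcdh17* and *Gfra2* lie to the right in Myh8 cells in both panels, *Lhx6* and *Gad1* overlap, and *Npy*, *Zbtb20*, *Man1a* and *Olfm3* lie to the left.

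The genes that were lower included several that were absent or nearly absent from the Myh8 cells. *Olfm3*, a secreted olfactomedin, had 0 UMIs in the 29 Myh8 cells at P1 against 218 in the comparison cells, at least 5.68-fold lower, and 3 UMIs against 201 at P5 (log2 ratio -3.38, -6.00 to -2.14). *Man1a*, a Golgi mannosidase, had 2 UMIs at P1 and 6 at P5 in Myh8 cells, and was detected in 3.55% of them at P5 against 14.4% of comparison cells (log2 ratios -4.10 and -2.18). *Cdh7*, a type II cadherin like *Cdh12*, had 1 UMI at P1 and 15 at P5, with log2 ratios of -3.42 and -1.75. The transcription factor gene *Zbtb20* was at 124 CPM against 499 at P1 (-1.996, -2.48 to -1.56) and 17.8 against 133 at P5 (-2.83, -3.75 to -2.17), and 7 of 141 Myh8 cells had it at P5 (4.96%, against 21.5%). Of its 42 UMIs in the Myh8 cells at P1, 24 were in 1 cell.

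*Npy*, which encodes neuropeptide Y, was at 284 CPM in Myh8 cells against 2252 in comparison cells at P1 and at 667 against 1491 at P5 (log2 ratios -2.98 and -1.16, -1.29 to -1.04). A single Myh8 cell held 52 of its 96 UMIs at P1. *Lmo4*, a LIM-domain regulator of transcription, had log2 ratios of -2.004 and -1.04, *Nkain3*, which interacts with the sodium pump, -2.43 and -1.89, and *Eya4*, a transcriptional cofactor and phosphatase, -1.20 and -1.60. At P5 only, the protocadherin gene *Pcdh11x* (-2.31), the matrix gene *Crtac1* (-2.02) and the proteoglycan gene *Vcan* (-1.54) were also called lower. The remaining genes lower in each library by the same ordering were *Mpped2*, *Carmil1*, *Ptprd*, *Pnoc* and *Serpini1*, with log2 ratios at P5 of -0.74 (*Pnoc*) to -1.46 (*Serpini1*).

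Depth moved with some of these differences at P1. Comparison cells were also limited, after the data had been seen, to depths between the lower quartile and the maximum of the Myh8 cells. This left 172 comparison cells at P1 and 493 at P5, and the Myh8 cells were not limited. *Zbtb20* at P1 then became 0.15 and *Npy* -1.01, while at P5 they were -2.50 and -0.58. *Olfm3* at P5 (-3.06), *Man1a* (-2.10 and -1.77), *Cdh7* (-3.55 and -1.77) and *Nr2f2* (1.21 and 1.71) stayed past the 2-fold line under that limit, and *Olfm3* at P1 was at 0 UMIs in the Myh8 cells. The 29 cells at P1 were few enough for other ratios to turn. After thinning, *Ldb2* at P1 was not detected in the Myh8 cells (-4.44, upper bound 1.73), and *Eya4* was 0.45 (-2.65 to 2.45). Among Myh8 cells with at least 2 *Myh8* UMIs *Asic2* at P1 was -0.53 (-5.90 to 1.95). Each of these intervals included 0.

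**Figure D3:**
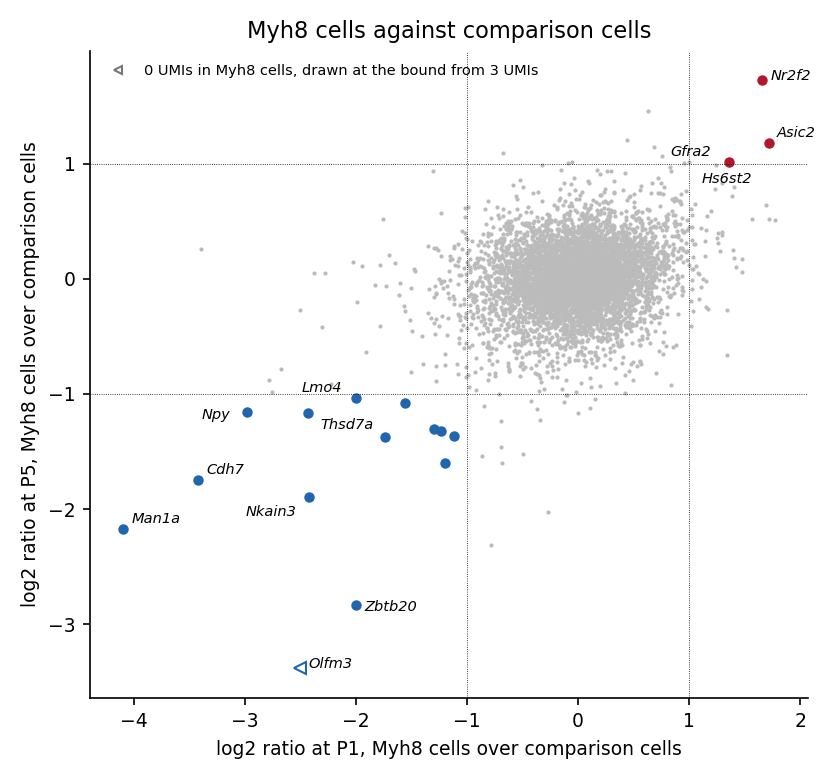
Log2 ratio of CPM + 1, Myh8 cells over comparison cells, at P1 (x axis) and P5 (y axis) for the genes that passed the filter on low counts in both; dotted lines mark 2-fold, coloured points the 3 genes higher and 14 lower in both, and open triangles genes with 0 UMIs in the Myh8 cells of either library, at the bound from 3 UMIs. *Nr2f2* stands at 1.66 and 1.73, and *Man1a*, *Zbtb20* and *Nkain3* lie at the lower left.

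Genes that define SST interneurons as a whole were close to equal in the 2 groups of cells. *Lhx6*, the transcription factor of medial ganglionic eminence interneurons, had log2 ratios of 0.05 at P1 and 0.13 at P5, *Gad1* 0.30 and 0.02, and the vesicular GABA transporter gene *Slc32a1* -0.05 and -0.07. Of the Martinotti genes, *Reln* (0.22 and -0.12), *Elfn1* (0.27 and 0.04), *Grin3a* (0.29 and 0.11) and *Unc13c* (-0.34 and 0.15) were also near 0 when all Myh8 cells were summed. *Olfm3*, which was far lower in Myh8 cells, is also on a list of Martinotti genes that the study chose. *Reln*, for example, which encodes the secreted protein reelin, was at 501 CPM (428 to 582.1) against 428 (409 to 448) at P1 and 534 (486 to 586) against 581 (558 to 604) at P5.

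The Myh8 cells were not uniform, and the genes above divided them by *Nr2f2*. Cells with and without an *Nr2f2* UMI were summed separately (18 and 11 cells at P1, 90 and 51 at P5), and comparison cells without *Pdyn* were split in the same way (173 and 542, 183 and 446). Cells with *Nr2f2* were deeper, with median UMIs of 12103.5 against 9150 at P1 and 6326 against 4896 at P5. At P5, 5.11% of 6844 genes were at least 2-fold higher in Myh8 cells with *Nr2f2* and 6.31% at least 2-fold lower, and at P1, with fewer cells, 11.1% and 7.44% of 6024. In the comparison cells, which were more numerous, the shares were 1.11% and 1.64% of 6870 at P5 and 0.38% and 0.747% of 7362 at P1.

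*Reln* was almost confined to the Myh8 cells with *Nr2f2*. At P5 it was detected in 94.4% of those with and 21.6% of those without *Nr2f2* (70.0% and 12.2% after thinning), at 709 CPM (643 to 780) and 117 CPM (78.3 to 168). At P1 the levels were 701 and 65.8 CPM. *Grin3a*, an NMDA receptor subunit gene, was at 2485 CPM with and 585 without *Nr2f2* at P5, and at 1674 and 348 at P1. *Elfn1*, whose product recruits presynaptic receptors to synapses on SST cells, was at 481 and 169 CPM at P5 and at 506 and 132 at P1. For all 3 genes the intervals of the cells with and without *Nr2f2* did not overlap in either library.

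Several other genes, picked after their values were seen, had the same direction. At P5, *Unc13c*, a gene of vesicle priming, was at 199 CPM with *Nr2f2* and 12.1 without, *Hs6st2* at 219 and 28.2, and *Gfra2* at 143 and 36.3. *Cntn6*, a contactin of the axon surface, had 50 UMIs in the cells with *Nr2f2* (84.2 CPM) and 0 in those without. *Npnt*, which encodes the matrix protein nephronectin, had 96 and 2 (162 and 8.06 CPM). *Npas1*, a helix-loop-helix transcription factor gene, was at 318 and 141 CPM, and *Satb1*, needed for SST interneuron maturation, at 951 and 581. All 12 Myh8 cells with *Chrna2* at P5, and the 1 at P1, had *Nr2f2*.

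Neuropeptide genes were lower in the Myh8 cells with *Nr2f2* than in those without at P5, 6 of the 10 that could be compared by at least 2-fold and none higher (median log2 ratio -1.37), and 7 of 11 in the comparison cells. At P1, 2 of 7 were lower and 1 higher in the Myh8 cells. Among glutamate receptor and related genes 3 of 22 were higher with *Nr2f2* at P5 and none lower (median 0.55). Over all genes of this split in the Myh8 cells, 5.11% were higher and 6.31% lower at P5, and 11.1% and 7.44% at P1. In the comparison cells at P5, 1.11% were higher and 1.64% lower. For the neuropeptides at P5, *Cort*, which encodes cortistatin, was at 455 CPM with *Nr2f2* and 1923 without, *Npy* at 439 and 1213, *Pnoc*, which encodes prepronociceptin, at 20.2 and 165, and *Cck*, which encodes cholecystokinin, at 10.1 and 149. *Erbb4*, the neuregulin receptor of interneurons, was at 48.8 and 327 CPM, and the neuronal splicing regulator *Srrm4* at 21.9 and 169. At P1, *Erbb4* (121 and 527 CPM) and *Cort* (182 and 414) had the same direction, whereas *Npy* had the opposite one, at 385 and 65.8 CPM, with 1 cell holding more UMIs of it than the rest. *Sst* was at 1858 CPM with and 2745 without *Nr2f2* at P5.

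Some genes did not follow the division. At P5, *Lhx6* was at 495 CPM with and 544 without *Nr2f2*, *Gad1* at 162 and 137, and *Pcdh17* at 909 and 883. *Calb1* was at 360 CPM with *Nr2f2* and 492 without, both above the 295 and 195 CPM of the comparison cells with and without *Nr2f2*. *Cdh12* did follow the division, being at least 2-fold higher with *Nr2f2* in Myh8 cells and in comparison cells. It was also higher in each Myh8 subset than in its comparison (82.5 against 55.1 CPM with, 40.3 against 14.6 without).

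The division by *Nr2f2* was present in the comparison cells too. At P5, *Reln* was at 720 CPM in comparison cells with *Nr2f2*, close to the 709 of Myh8 cells with it, and at 339 CPM in those without, above the 117 of Myh8 cells without it. *Grin3a* followed the same order, at 2417 and 1152 CPM in the comparison cells, as did *Elfn1*, at 539 and 271. *Hs6st2* (179 and 49.8 CPM), *Erbb4* (42.0 and 197) and *Cort* (436 and 1189) also differed in the same direction. The Myh8 cells without *Nr2f2* thus lay further from those with it than the corresponding comparison cells did for *Reln*, *Grin3a* and *Elfn1*, a difference that was not tested.

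**Figure D4:**
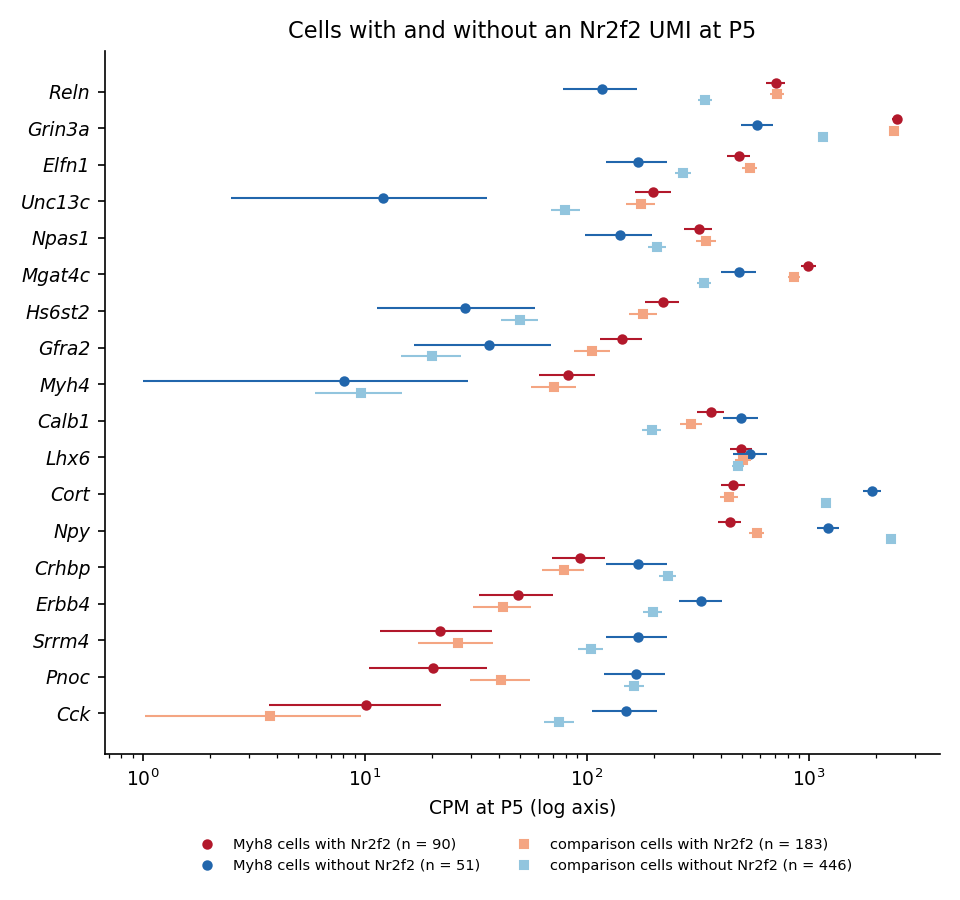
CPM at P5 on a log axis of 18 genes (rows) in Myh8 cells and comparison cells with and without an *Nr2f2* UMI; lines are exact Poisson intervals. *Reln*, *Grin3a* and *Elfn1* are lowest in the 51 Myh8 cells without *Nr2f2*, *Lhx6* is alike in the 4 sets, and *Cort*, *Erbb4*, *Pnoc* and *Cck* are higher in both sets without *Nr2f2*.

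Lists of genes chosen for Martinotti and non-Martinotti cells by the study on these libraries gave the same picture, and are for that reason not independent evidence of it. Among the genes of the first Martinotti list that could be compared, without *Nr2f2* itself, 8 of 12 were at least 2-fold higher in Myh8 cells with *Nr2f2* at P5 (median log2 ratio 1.14) and 7 of 10 at P1 (1.36). The second Martinotti list had medians of 0.94 and 1.08. The first non-Martinotti list had 9 of 12 genes at least 2-fold lower at P5 (median -1.16) and 7 of 9 at P1 (-1.09), and the second had medians of -1.01 and -1.05. Over all genes the medians were -0.02 at P5 and 0.03 at P1. Of all genes, 5.11% were called higher and 6.31% lower at P5, and 11.1% and 7.44% at P1. In the comparison cells at P5 the 4 medians were 0.62, 0.76, -1.22 and -0.55. There the first Martinotti list had 3 of 14 genes called higher and 1 lower, and the first non-Martinotti list had 7 of 13 called lower. With the Myh8 cells limited, after the data had been seen, to those with at least 5000 UMIs (68 and 24 at P5), the medians at P5 were 1.11, 1.03, -1.36 and -1.03.

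Looked at from the other side, *Myh8* was found in SST cells at a rate that varied with the other genes they had. Among cells at P5 with at least 5 *Sst* UMIs and none of *Nos1* or *Pdyn*, 86 of 715 (12.03%) had *Myh8*. The share was 23.1% (55 of 238, 17.9 to 29.0) in those with *Nr2f2* and 6.50% (31 of 477, 4.46 to 9.10) in those without. After thinning to 2000 UMIs, the shares were 8.72% (4.73 to 14.5) and 5.51% (3.63 to 7.97). The cells with *Nr2f2* were deeper. Thinned cells were sorted again by their thinned counts, which left 149 with *Nr2f2*, so the sets were not the same cells as at full depth. A role of depth was not tested. For *Myh4* the shares were 31.6% (25 of 79) with and 9.59% without, and 19.4% and 5.59% after thinning. For *Gfra2* they were 21.8% and 9.60%, and 12.5% and 5.66% after thinning. For *Zbtb20* they ran the other way, 2.94% (4 of 136) with and 14.2% without, and 1.20% and 7.06% after thinning. After thinning, the intervals with and without the gene overlapped for each of these genes.

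The level of *Nr2f2* varied among the Myh8 cells with their counts of *Myh8* and *Sst*. At P1 it was 633 CPM (537 to 742) in the 22 Myh8 cells with 1 *Myh8* UMI and 240 CPM (152 to 360) in the 7 with more, and at P5 it was 527 CPM (475 to 583) and 406 CPM (301 to 535). At P5, *Nr2f2* was detected in 77 of 123 Myh8 cells with 1 *Myh8* UMI (62.6%) and in 13 of 18 with 2 or more (72.2%), and *Chrna2* in 5.69% and 27.8%. In the Myh8 cells with at least 5 *Sst* UMIs, *Nr2f2* was at 432 CPM (358 to 516) at P1 and 436 CPM (384 to 493) at P5, below the 962 CPM (724 to 1252) and 674 CPM (578 to 781) of those with fewer. It was detected about as often in both sets at P5, in 64.0% of the 86 with at least 5 and 63.6% of the 55 with fewer.

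Of the other skeletal muscle myosin genes, *Myh4* was the most often detected in the Myh8 cells. At P5, *Myh4* had 51 UMIs in the Myh8 cells, 60.6 CPM (45.1 to 79.6) against 30.4 (25.4 to 36.1) in comparison cells, a log2 ratio of 0.97 (0.50 to 1.47), and was in 21.3% of Myh8 cells against 8.88%. Of the 51 UMIs, 49 were in Myh8 cells with *Nr2f2* (82.5 CPM) and 2 in those without (8.06 CPM), and the comparison cells showed the same split, 70.9 and 9.59 CPM. *Myh1* was in 8.51% of Myh8 cells against 4.88%, *Myh13* in 7.09% against 3.88%, *Myh3* had 3 UMIs and *Myh2* 1. *Myh10*, which encodes the non-muscle myosin of neurons and lies elsewhere on the chromosome, was in 44.0% of Myh8 cells and 38.4% of comparison cells (log2 ratio 0.17). At P1, *Myh4* had 3 UMIs in the Myh8 cells and *Myh1* had 4.

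**Figure D5:**
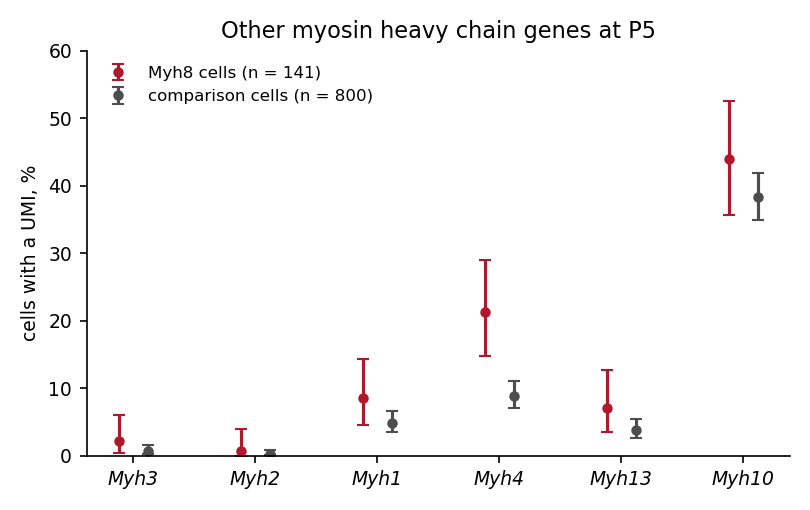
Share of cells with a UMI (y axis, %) for 6 other myosin heavy chain genes at P5 in 141 Myh8 cells and 800 comparison cells; bars are 95% Clopper-Pearson intervals. *Myh4* is at 21.3% of Myh8 cells against 8.88%, with intervals that do not overlap, and those of the other 5 genes do.

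Of the 12 skeletal muscle genes listed (contractile proteins, muscle creatine kinase and myogenic factors), 9 at P1 and 8 at P5 had 0 UMIs in the Myh8 cells. Among them were *Ckm*, *Tnnt3*, *Tnni2*, *Myl1*, *Des* and *Myod1*, which had no UMI in the comparison cells of P1 and P5 either. The list held 15 and 31 UMIs in all, 44.4 CPM against 123 in comparison cells at P1 and 36.8 against 51.3 at P5. *Neb* passed the filter at P1 and was lower than in comparison cells (-1.88), and *Acta1* passed at P5 (-0.11). Of the adult SST type names, only *Nr2f2* passed the filter at P1 and 3 genes did at P5, *Nr2f2* being called (median 0.97 at P5). *Etv1* (1 and 9 UMIs at P1 and P5), *Cbln4* (2 and 4), *Calb2* (2 and 13) and *Tac1* (0 and 4) also occur in names of SST types. All had few UMIs in the Myh8 cells, which alone does not show a difference from other cells. Among cells at P5 with at least 5 *Sst* UMIs and none of *Nos1* or *Pdyn*, 12.12% with *Calb2* (8 of 66) and 12.02% without it had *Myh8*. For *Etv1* the shares were 8.57% (3 of 35, 1.80 to 23.1) with and 12.2% (9.84 to 14.9) without. The summed log2 ratio of *Calb2* at P5 was -0.79. *Hpse*, which names another SST type, had 0 UMIs in the Myh8 cells at P5 against 28 in the comparison cells, of 842122 and 4311420 UMIs in all.

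Groups of genes by function are given against the share of all genes called, 1.27% higher and 2.41% lower at P1 and 0.35% and 0.569% at P5. Among transcription factors, 2 of 35 were called higher (5.71%) and 8 lower (22.9%) at P1 (median -0.09), and 2 of 32 each way (6.25%) at P5 (0.09). The highest were *Nfix* at P1 (3.49) and *Id2* at P5 (2.38), whose UMIs lay in few cells as stated above. *Zbtb20*, among the lower genes at P1, became 0.15 there with the depth of the comparison cells limited. Among axon guidance genes, 6 of 29 (20.7%) were lower at P1 and none higher (median -0.05). The 10 calcium-binding genes compared at P1 were all above 0 (median 0.48, with *Calb1* called), and at P5 8 of 12 were (median 0.19, none called). Among acetylcholine receptor genes 1 of 5 was called at P1, *Chrna4* (1.16, 0.08 to 2.20), and none of 6 at P5, where *Chrna4* had 0.54 (0.17 to 0.92). No ion channel gene of 36 and no glutamate or GABA receptor gene of 22 and 16 was called at P5, with medians of 0.07, -0.09 and 0.04. At P1, 1 gene of each of these 3 groups was called lower, of 37, 22 and 16. The cadherins and protocadherins had 1 of 20 called higher (*Cdh12*) and 3 lower (*Cdh7*, *Pcdh11x* and *Pcdh18*) at P5, with medians of -0.46 at P1 and -0.37 at P5. Of the synaptic organizers at P5, 1 of 23 was called, *Nlgn1* (-1.10), which encodes a neuroligin, and of the axon guidance genes 1 of 25, *Ntng1* (-1.20), which encodes a netrin-G. Neuropeptides other than *Sst* and *Pdyn* had 2 of 9 lower at P1 and 1 of 10 at P5, *Npy* included.

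The lists for cell identity were also mostly flat for the sum of all Myh8 cells. The first Martinotti list had 1 of 15 genes higher and 2 lower at P1 (median 0.22) and 2 higher and 1 lower at P5 (0.09). The second had 1 of 23 higher in each library (0.29 and 0.09). The lowest gene of the first list in both libraries was *Olfm3*, and that of the second was *Mpped2* (-0.99 and -0.83). The non-Martinotti lists had medians of 0.02 and 0.17 at P1 and -0.18 and 0.06 at P5. The list of long-range projecting cells was lower at P1, with 4 of 8 genes called lower and 1 higher (median -1.48) and 1 of 5 lower at P5 (-0.66). Among its genes and those of migrating cells at P1, *Pou3f2* had 2 UMIs in Myh8 cells against 311 (log2 ratio -3.40), *Sfrp1* 3 against 196 and *Cxcr4* 2 against 240. The Myh8 cells held 337551 UMIs in all and the comparison cells 4314719, so the raw counts overstate the differences. With comparison cells between the lower quartile and the maximum depth of the Myh8 cells, the median of the long-range list at P1 became 0.35. These lists were chosen by the study on these libraries.

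Markers of other cell types were summed in the same way. Over 10 glial, 6 microglial, 10 vascular and blood and 11 excitatory marker genes, the Myh8 cells held 7, 1, 1 and 29 UMIs at P1 and 27, 0, 4 and 1 at P5. The 29 excitatory UMIs at P1 included *Neurod6* (9) and *Tbr1* (2), with *Slc17a7* and *Slc17a6* at 0, and 1 Myh8 cell held at least 3 of them. That list's summed level was 85.9 CPM in Myh8 cells against 3.94 CPM in comparison cells at P1, and 1.19 against 5.10 at P5. Without the cells that held excitatory UMIs, the log2 ratio of *Nr2f2* at P1 was 1.74. Interneurons of the caudal ganglionic eminence, which also use *Nr2f2*, were represented by 10 marker genes. Of these, 7 at P1 and 6 at P5 had 0 UMIs in the Myh8 cells, *Vip*, *Htr3a*, *Adarb2*, *Sp8* and *Sncg* among them. A gene at 0 UMIs in this many cells does not by itself show a difference from other cells. Nearly all UMIs of that list were of *Cnr1*, the cannabinoid receptor gene that SST cells also express (139 UMIs at P1 and 326 at P5), and the list's summed level was 427 CPM against 294 at P1 and 405 against 303 at P5. Genes induced by dissociation had medians of -0.01 and 0.03, and the list of a stressed cluster had -0.27 and -0.38.

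Cells with *Pdyn* and cells with *Cbln4*, a synaptic organizer gene, were set beside the Myh8 cells as the most like groups, each chosen by a single gene in the same way. Against 390 Pdyn cells at P5, 2% of 6840 genes were called higher in Myh8 cells and 1.92% lower. *Nr2f2* was at 509 CPM in Myh8 cells and 61.6 in Pdyn cells (log2 ratio 3.03, 2.77 to 3.34), *Cort* at 887 and 170, *Igfbp5* at 241 and 46.4, and *Pcdh17* at 901 and 178. Lower in Myh8 cells were *Olfm3*, at 3.56 and 71.7 CPM, *Zbtb20*, at 17.8 and 168, *Id4*, at 20.2 and 182, and *Epha4*, an ephrin receptor gene, at 1.19 and 50.1. *Nr2f2*, *Olfm3* and *Zbtb20* thus separated Myh8 cells from Pdyn cells in the same direction as from the comparison cells, of which Pdyn cells with at least 5 *Sst* UMIs were a part. Without Pdyn cells in the comparison, the log2 ratio of *Nr2f2* at P5 was 1.55.

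Against 46 Cbln4 cells at P5, 7.05% of 6765 genes were called higher and 4.29% lower. *Cort* was at 887 CPM in Myh8 cells and 40.8 in Cbln4 cells, *Rbp4*, which encodes a retinol carrier, at 272 and 13.6, *Mgat4c* at 843 and 86.1, and *Nr2f2* at 509 and 40.8. *Zbtb20* was at 17.8 CPM against 644, *Thsd7a* at 30.9 against 576 and the transcription factor gene *Maf* at 249 against 1428. At P1 the groups were small (27 Pdyn and 80 Cbln4 cells), and 6.78% and 6.41% of 7158 genes were called higher and lower against Pdyn cells and 5.15% and 4.27% of 7159 against Cbln4 cells.

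From P1 to P5, 7.45% of 6320 genes were at least 2-fold higher and 8.07% at least 2-fold lower in the Myh8 cells, against 5.89% and 5.92% in the comparison cells. *Thy1*, a surface protein of maturing neurons, had a log2 ratio of P5 over P1 of 3.58 in Myh8 cells and 3.61 in comparison cells, *Nrip3* 2.70 and 2.87, and the exchanger gene *Slc24a2* 3.41 and 2.35. *Cd24a*, a surface protein of young neurons, had -3.45 and -2.48, and *Mex3a* -2.93 and -2.25. *Etl4* (3.30 and 1.07) and *Hap1* (2.46 and 1.07) had larger ratios in the Myh8 cells, a difference that was not tested. *Dnajc1*, among the genes with the largest rise in Myh8 cells (3.25, 1.05 to 8.98, from 1 and 31 UMIs), had -0.39 (-0.74 to -0.07) in comparison cells. Of the 156 genes of the study's developmental module that could be compared, 37 were at least 2-fold higher in Myh8 cells and 46 in comparison cells, with medians of 0.65 and 0.69. *Nr2f2* in Myh8 cells was at 521 and 509 CPM, and *Mgat4c* at 397 and 843.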

How the data were processed

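Single-cell libraries were made from GFP+ cells sorted from neocortex, 1 library a stage. The deposited files held raw UMI counts per gene and cell, which the authors made with Cell Ranger (3.1.0 at E16.5 and P5 and 3.0.2 at P1, per the file headers) on GRCm38, with STAR and Seurat also named in the labels. No annotated cell types were used. The 3 libraries held 25638779, 15654107 and 13429055 UMIs in 4478, 4440 and 3406 cells at E16.5, P1 and P5.

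Cells were kept and grouped as stated in the report, with Python 3.11.15, numpy 2.4.6, scipy 1.17.1 and pandas 2.3.3 (figures, matplotlib 3.10.9). Counts were summed per group and library and scaled to CPM over all genes. A gene was compared with at least 10 UMIs over both groups and a mean of at least 20 CPM. *Myh8*, *Nos1*, *Pdyn* and *Sst*, which chose the cells, were left out of the counts of genes. Ratios had a pseudocount of 1 CPM, intervals were exact (Poisson for levels, Clopper-Pearson for shares, conditional binomial for ratios, 95%), and a share of 0 cells was bounded by 3 counts unless an interval is named. Deeper cells show more genes, so shares were also given with cells thinned at random to 2000 UMIs. Excitatory-like cells had at least 3 UMIs of excitatory markers and 0 of *Lhx6*. No doublet caller was run, and Myh8 cells were recomputed without the 5% of cells with most UMIs.

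Genes were named as *Nr2f2* and *Chrna2*, the 15 highest and 10 lowest over all 3 libraries by their least extreme ratio, the 5 highest and 5 lowest others at P5, and textbook members of gene lists. Genes past 2-fold in both postnatal libraries, genes that divided cells by *Nr2f2*, and genes of the like-cell and stage comparisons were named after their values were seen. The Myh8 cells and the gene lists were chosen with earlier results of these data known. The scripts were tested on simulated data. Other settings covered *Myh8*, *Sst*, cell and gene thresholds, depth, scaling and pseudocount. Some genes are not reported here.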

Additional observations from a re-analysis of the deposited data

How the results depend on the processing

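Of 3187 values recomputed under other settings, 2844 moved by less than their counting interval or, for numbers of genes, by less than 1.5 times. Another 331 moved further, and 12 ratios that were at least 2-fold in the main setting changed sign. Smaller ratios that changed sign, such as the first Martinotti list at P1, were not counted apart. The log2 ratio of *Nr2f2* stayed above 0 in both postnatal libraries under each setting. With at least 2 *Myh8* UMIs (7 Myh8 cells at P1) its interval at P1 was -0.12 to 1.14, which includes 0. No paired analysis was possible because each stage was 1 library with no replicate.

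With at least 2 *Myh8* UMIs the share of Myh8 cells was 0.280% at P1 and 0.604% at P5, *Nr2f2* was 0.54 and 1.40, *Chrna2* -0.95 and 2.12 and *Asic2* at P1 -0.53. *Chrna2* at P1 had no UMI in these Myh8 cells. The first Martinotti list at P1 was -0.97, the second at P5 -0.081, and the second Martinotti and non-Martinotti lists split by *Nr2f2* at P5 were 1.43 and -0.30. Genes lower at E16.5 numbered 1768, and genes higher and lower 515 and 705 at P1, 314 and 380 at P5, 35 and 54 in both, and 3 and 21 in all 3 libraries. With more than 1000 genes and less than 5% mitochondrial UMIs, which left 3 Myh8 cells at P1, their share was 0.446% at P1 and 6.83% at P5, and at P1 *Nr2f2* was 3.84, *Ldb2* -2.03 (no UMI in the Myh8 cells), *Eya4* 0.64 and the 2 Martinotti lists 1.08 and 1.43. Split by *Nr2f2* (2 cells against 1) these lists were 9.39 and 8.69 and *Cort* 7.89, and the first non-Martinotti list gave no value. Genes higher and lower at P1 numbered 1104 and 1245, 7 were higher in P1 and P5, and 2 lower in all 3 libraries.

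With each cell thinned to 2000 UMIs the shares were 0%, 0.438% and 2.78%, and at P1 *Nr2f2* was 2.37, *Chrna2* -0.90, *Ldb2* -4.44, *Eya4* 0.45 and the first non-Martinotti list, split, -2.78. *Chrna2* and *Ldb2* had no UMI in these thinned Myh8 cells at P1. Genes lower at E16.5 numbered 2836, and genes higher and lower 819 and 876 at P1, 157 and 181 at P5, 21 and 39 in both, and 3 and 25 in all 3. Without the 5% of cells with most UMIs the share at P1 was 0.758%, *Nr2f2* at P1 2.05, genes lower at E16.5 1781, genes higher and lower at P1 279 and 490, and genes lower 22 in both and 7 in all 3. With Myh8 cells of at least 5 *Sst* UMIs the share at P5 was 2.89%, *Nr2f2* was 1.39 and 1.5, *Id2* at P5 -0.19, genes lower at P5 59 and genes higher in all 3 libraries 1. With comparison cells of at least 1 *Sst* UMI, 5 genes were higher in both and 1 in all 3. Without Pdyn cells in the comparison *Nr2f2* at P5 was 1.55, and without cells with excitatory UMIs 5 genes were higher in both.

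With mean CPM per cell *Nr2f2* at P1 was 1.99, genes higher and lower at P1 202 and 481, lower at P5 71 and lower in both 24. A pseudocount of 5 gave 56 genes higher at P1 and 10 at P5. The stricter gene filter gave 643 and 415 genes at E16.5, 16 and 32 at P1, 7 and 9 at P5 and 5 lower in both. No gene filter gave 6310 lower at E16.5, 1015 and 2093 at P1, 800 and 965 at P5, 86 and 304 in both, 7 and 182 in all 3, and -0.76 for the adult type names at P1. Of settings chosen after seeing the data, leaving out cells with *Chodl*, *Pou3f2* or *Sfrp1* gave a share of 5.69% at P5 and 2 genes lower in all 3. Another limited the comparison cells to depths between the lower quartile and the maximum of the Myh8 cells. It gave *Nr2f2* 1.21, *Zbtb20* 0.15 and the long-range list 0.35 at P1, 101 genes lower at P1, 6 lower in both, and 1 each way in all 3. Except where a setting's own construction left fewer cells, molecules or genes, the cause was not tested.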
